A study of Mus musculus with 11 samples.

Results

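The effect of deleting Nrf1 was followed over both Dnmt3C backgrounds of the series, by comparing the 6 testis libraries in which Nrf1 was deleted with the 5 in which it was intact, which together are all 11 libraries analysed here. RNA was taken at postnatal day 5 from mice of 4 genotypes: wild type (WT, 2 libraries), Dnmt3C KO/KO (Dnmt3C KO, 3), Nrf1 cKO/KO (Nrf1 cKO, 3) and animals carrying both mutations (dKO, 3). In the Nrf1 mutants a floxed allele was removed by Ddx4-Cre (Vasa-Cre), which acts in germ cells before birth, and the other allele was already null, whereas the Dnmt3C knockout was carried in all cells of the Dnmt3C KO and dKO animals. The sample names say germ cells, while the labels and the methods describe whole testes, so that somatic cells, which Ddx4-Cre does not target, contribute to every library. In the Nrf1 mutants these cells keep the floxed allele beside the null one. Counts of 33188 genes and 1088 transposable element (TE) subfamilies were fitted with Nrf1 status and Dnmt3C status as 2 factors, and 21690 genes and 904 subfamilies had enough reads to be tested. In what follows, a log2 fold change without further qualification is the Nrf1 term of that fit, Nrf1 deleted over Nrf1 intact.

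NRF1 (nuclear respiratory factor 1) is a transcription factor that binds a GC-rich palindrome in promoters. It is best known for activating nuclear genes of the mitochondrial respiratory chain and ribosome, and its binding is blocked by methylation of the CpGs in its site. In the testis it is needed for the maintenance of spermatogonia. At this age the seminiferous cords hold Sertoli cells and spermatogonia, before meiosis. DNMT3C is a rodent DNA methyltransferase that silences the promoters of young retrotransposons in male germ cells. NRF1 is a different protein from NFE2L1, which is also abbreviated Nrf1 and controls proteasome genes.

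The upstream sequences of 5 genes are shown as examples. Tuba3a was the 1 gene called by the main test. Asz1, Syce1, Tktl2 and Stk31 are germline genes with low levels in Nrf1-deleted libraries whose promoters hold the NRF1 motif. These 4 were chosen after their values were seen. Each line gives the 150 bases before the start site in the RefSeq table (GRCm38.p6), 5′ to 3′ on the strand of the gene, with every match to the NRF1 motif on either strand in capitals. The motif is GCGC, A, any base, and GCGC again; the full palindrome has T as that base. Tuba3a lies at chr6:125286082-125286231, minus strand, Asz1 at chr6:18109062-18109211, minus strand, Syce1 at chr7:140787855-140788004, minus strand, Tktl2 at chr8:66511590-66511739, plus strand and Stk31 at chr6:49395454-49395603, plus strand.
Tuba3a: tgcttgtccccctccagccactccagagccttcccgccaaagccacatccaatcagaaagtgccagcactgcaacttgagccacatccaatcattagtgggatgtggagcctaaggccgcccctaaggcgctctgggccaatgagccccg
Asz1: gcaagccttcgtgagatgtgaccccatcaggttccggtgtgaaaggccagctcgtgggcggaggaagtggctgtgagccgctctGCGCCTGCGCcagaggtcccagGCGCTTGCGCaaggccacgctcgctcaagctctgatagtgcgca
Syce1: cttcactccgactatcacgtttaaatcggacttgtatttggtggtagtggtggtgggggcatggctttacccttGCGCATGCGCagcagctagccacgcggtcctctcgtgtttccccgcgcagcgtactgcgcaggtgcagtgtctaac
Tktl2: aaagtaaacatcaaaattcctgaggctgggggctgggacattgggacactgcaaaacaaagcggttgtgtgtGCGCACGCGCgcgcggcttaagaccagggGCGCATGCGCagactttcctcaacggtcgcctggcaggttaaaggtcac
Stk31: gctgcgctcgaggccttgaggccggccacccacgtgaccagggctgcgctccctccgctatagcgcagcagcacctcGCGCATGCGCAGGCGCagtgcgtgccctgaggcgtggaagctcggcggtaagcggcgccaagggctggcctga

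Tuba3a had no match in these bases. In Asz1 the matches began 66 and 44 bases before the start site, in Syce1 76 bases, in Tktl2 78 and 49 bases, and in Stk31 73 and 67 bases, where 2 matches overlap. Syce1, Tktl2 and Stk31 hold the full palindrome. A second Stk31 start site in the table, further upstream, had no match in its 150 bases. In windows from 250 bases before to 50 after the start, 4.6% of all 32851 promoters in the table held the motif and 0.971% held the full palindrome. A match describes the sequence and not a bound site, and binding was not measured in these libraries.

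In the same windows, 1300 of the 13620 tested genes with a window held the motif (9.54%), and of the protein-coding ones 9.93% did. Only 62.8% of all tested genes and 78.2% of the protein-coding ones had a window, so these shares describe the genes with a window and are void as a test of the lists. Of 29 germ cell markers with a window, 0 held the motif. Of 26 germline genes that promoter methylation silences in somatic cells, 8 held it (30.8%), and 4 of them held the full palindrome. Of 28 meiotic chromosome genes 7 did (25%), of 68 mitochondrial ribosomal protein genes 13, of 23 mitochondrial biogenesis factors 4 (17.4%), of 13 genes of differentiating spermatogonia 2 (15.4%), of 25 DNA replication genes 1 (4%), of 28 proteasome subunit genes 6 (21.4%), and of 24 transposon and heterochromatin repressors 7 (29.2%). For piRNA pathway genes such a share is void, because only 76.7% of the members had a window (11 of 23 with a window held the motif). The same holds for the genes that DESeq2 called lower, of which 75.7% had a window (1 of 28 held the motif, 3.57%). It also holds for oxidative phosphorylation genes (78.8% with a window, 18 of 67 with the motif). Genes of undifferentiated spermatogonia (71.4%, 0 of 20) and p53 target and apoptosis genes (79.2%, 0 of 19) are further such lists.

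Total counts were between 26063590 and 39365841 per library, and counts at this depth carry little sampling error for all but the lowest genes. The spread between libraries of 1 genotype was wider than counting alone gives, with a chi-square statistic per degree of freedom between 17.62 and 61.76. Several libraries stood apart. WT replicate 2 had the highest red blood cell genes, with a mean of 6.91 log2 CPM (normalised counts, CPM) against 4.00 to 4.57 in the other Nrf1-intact libraries. Dnmt3C KO replicate 1 had the highest germ cell markers. Among the Nrf1-deleted libraries, Nrf1 cKO replicates 2 and 3 and dKO replicate 3 had the lowest germ cell markers.

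The counts do not check the Nrf1 genotype. Nrf1 itself was measured at 57 and 58 CPM in WT, 44.9, 55.5 and 50.3 in Dnmt3C KO, 56.1, 52.2 and 57.9 for Nrf1 cKO and 56.8, 60.8 and 60.8 in dKO. The groups overlapped, with a log2 fold change of 0.11 (SE 0.09, edgeR adjusted p = 0.755). Dnmt3c was at 4.16 and 4.87 CPM in WT and between 3.01 and 4.94 CPM in the mutants, and its log2 fold change was 0.05 (SE 0.18, edgeR adjusted p = 0.948). Both are counts over the whole gene and over all cells of the testis.

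Across genes and TE subfamilies, edgeR's quasi-likelihood test called 1 feature at an adjusted p under 0.01. It was lower in the Nrf1-deleted libraries (0.00443% of the 22594 features tested), and 0 features were higher (0%). At an unadjusted p under 0.05, 946 genes were lower (4.36%) and 802 higher (3.7%), and of the TE subfamilies 29 were lower (3.21%) and 1 higher (0.111%). The DESeq2 Wald test, an alternative, called 37 genes lower (0.148% of 24944) and 2 higher (0.00802%), and 0 TE subfamilies. All 6 Nrf1-deleted libraries lay below all 5 intact ones for 101 genes (0.466%), and above them for 62 genes (0.286%).

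The called gene was Tuba3a (ENSMUSG00000067702.5), which encodes a testis alpha-tubulin. Its levels were 137 and 106 CPM in WT and 137, 121 and 137 CPM in Dnmt3C KO. They were 51.9, 46.8 and 35.5 CPM for Nrf1 cKO and 68.6, 72.4 and 49.5 CPM in dKO. Every Nrf1-deleted library was thus below every intact one, and the deleted mean was 42.3% of the intact mean. The log2 fold change was -1.23 (SE 0.13, edgeR adjusted p = 0.00529). It was -1.44 (SE 0.19) in Nrf1 cKO over WT and -1.06 (SE 0.18) in dKO over Dnmt3C KO. The call was lost (edgeR adjusted p above 0.01) when any 1 of 9 libraries was left out, although the log2 fold change was between -1.31 and -1.12 in all 11 such fits. With germ cell markers set equal in every library, the log2 fold change of Tuba3a was -0.37 (edgeR adjusted p = 0.239). That scaling moved the median gene by 0.89, and relative to the median gene Tuba3a was at -1.26.

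Tuba3b, a near-identical copy of Tuba3a on the same chromosome, was at 122 and 120 CPM in WT, 131, 126 and 138 in Dnmt3C KO, 55.6, 27.2 and 18.5 for Nrf1 cKO and 69.2, 65.6 and 39.5 in dKO. Its groups did not overlap either, with a log2 fold change of -1.47 (SE 0.24, edgeR adjusted p = 0.115). Reads of the pair can be shared by the counting, so the 2 genes are not independent measurements.

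Cyct, Cox7b2, Pramef12, Usp26, Mt2, Klhdc7a and Ptger2 are outside the lists and were chosen after their values were seen, because the DESeq2 test called them. Cyct, the testis form of cytochrome c, had a deleted mean at 34.3% of the intact mean (log2 fold change -1.49, SE 0.22, edgeR adjusted p = 0.0869, DESeq2 adjusted p = 3.1e-08). Cox7b2, a testis form of a cytochrome c oxidase subunit, was at 35.4% (log2 fold change -1.43, SE 0.27, DESeq2 adjusted p = 0.00049). For both genes all Nrf1-deleted libraries lay below all intact ones. Pramef12 had a log2 fold change of -0.96 (SE 0.15) and Usp26, an X-linked deubiquitinase gene of the germline, one of -1.24 (SE 0.21), again without overlap between the groups. The metallothionein gene Mt2 was at 36% of the intact mean, with overlapping groups. The 2 genes called higher by DESeq2 were Klhdc7a, at 179% of the intact mean, and Ptger2, a prostaglandin E2 receptor gene, at 182%. Ptger2 lay between 3.76 and 5.65 CPM in the Nrf1-deleted libraries and between 1.72 and 3.6 CPM in the intact ones, without overlap.

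**Figure D1:**
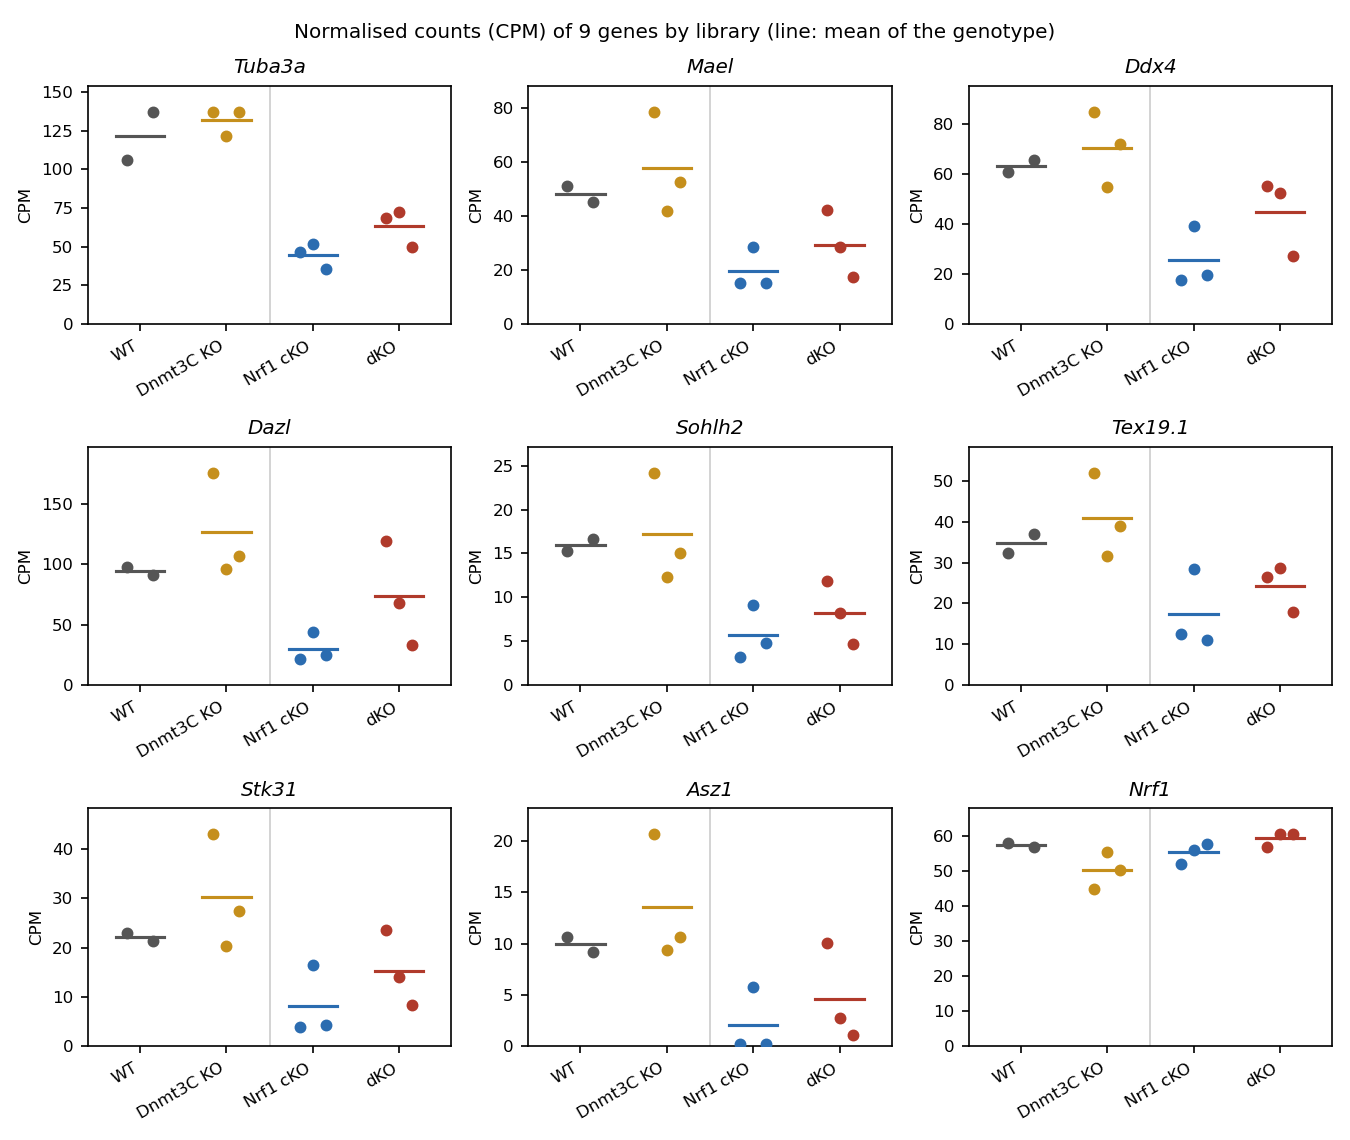
Normalised counts (CPM, linear axes from 0) of 9 genes in each of the 11 libraries, by genotype, with points for libraries and lines for genotype means. Tuba3a, Sohlh2 and Tex19.1 show no overlap between Nrf1-deleted and intact libraries, Mael, Ddx4, Dazl, Stk31 and Asz1 overlap through dKO replicate 1, and Nrf1 itself is level.

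Most germ cell genes had lower values where Nrf1 was deleted. Of 36 germ cell markers tested, 32 had a log2 fold change below 0, and the median was -0.84, against 0.01 over all genes, of which 10511 of 21690 were below 0. None of the markers passed the adjusted threshold. At an unadjusted p under 0.05, 22 were lower and 0 higher (4.36% and 3.7% of all genes), and for 3 all deleted libraries lay below all intact ones (0.466% of all genes). The mean level of the list was between 1.93 and 3.09 log2 CPM in the Nrf1-deleted libraries and between 3.05 and 3.87 in the intact ones, so the ranges met at dKO replicates 1 and 2 and WT replicate 2. In whole testes, fewer germ cells and less of these RNAs per germ cell cannot be told apart.

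Among the markers, the RNA helicase gene Ddx4 (Vasa), used throughout the germline, was at 65.7 and 60.8 CPM in WT, 85.1, 54.8 and 71.9 in Dnmt3C KO, 39.1, 17.5 and 19.8 for Nrf1 cKO and 55.3, 52.4 and 27.2 in dKO. Only dKO replicate 1, at 55.3 CPM, reached the lowest intact library. The log2 fold change was -0.95 (SE 0.23, edgeR adjusted p = 0.341). Dnd1, an RNA-binding protein gene of the germline, was at 49.3% of the intact mean (log2 fold change -0.95, SE 0.21, edgeR adjusted p = 0.288), and Ctag2l1 at 27.0% (log2 fold change -1.90, SE 0.40, edgeR adjusted p = 0.248).

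Genes of undifferentiated spermatogonia had a smaller median, -0.50 over 28 genes, with 23 below 0. Of the 28, 10 were lower at an unadjusted p under 0.05 and 0 higher (4.36% and 3.7% of all genes). Pou5f1 (Oct4), a pluripotency factor kept in spermatogonia, was between 10.8 and 13 CPM in the intact libraries and between 2.32 and 9.39 CPM in the deleted ones, without overlap (log2 fold change -1.04, SE 0.29, edgeR adjusted p = 0.392). Nanos3, Lin28a and Tcl1 had log2 fold changes of -1.19 (SE 0.34), -0.95 (SE 0.27) and -0.94 (SE 0.29). Gfra1, the receptor for GDNF that marks stem cells, was at 73.7% of the intact mean with overlapping groups. Of these 28 genes, 21 are also germ cell markers. This median moved with single libraries: it was -0.28 without WT replicate 1 and -0.82 without dKO replicate 2.

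For 14 genes of differentiating spermatogonia the median was -0.82, with 12 below 0. Of the 14, 8 were lower at an unadjusted p under 0.05 and 0 higher (4.36% and 3.7% of all genes). Sohlh2, a transcription factor of differentiation, was at 16.7 and 15.3 CPM in WT, 24.2, 12.3 and 15.1 in Dnmt3C KO, 9.07, 3.24 and 4.80 for Nrf1 cKO and 11.8, 8.18 and 4.64 in dKO. The groups did not overlap, and the log2 fold change was -1.25 (SE 0.28, edgeR adjusted p = 0.288, DESeq2 adjusted p = 0.0045). Its partner Sohlh1 had a log2 fold change of -1.09 (SE 0.30) and Nxf2, an X-linked RNA export gene, one of -1.08 (SE 0.30), both with overlap. Kit, the receptor of differentiating spermatogonia, which Leydig cells also carry, was at 86.6% of the intact mean (log2 fold change -0.16, SE 0.19).

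The piRNA pathway makes small RNAs that guide transposon silencing in fetal germ cells, in granules called nuage. Its 30 genes had a median of -0.92, with 27 below 0. Of the 30, 18 were lower at an unadjusted p under 0.05 and 0 higher (4.36% and 3.7% of all genes). Mael, a nuage component, was at 45.4 and 51.1 CPM in WT, 78.8, 41.8 and 52.6 in Dnmt3C KO, 28.5, 15.2 and 15.4 for Nrf1 cKO and 42.2, 28.7 and 17.5 in dKO. The groups met at dKO replicate 1, and the log2 fold change was -1.11 (SE 0.23, edgeR adjusted p = 0.236). Tdrd5, whose protein carries a Tudor domain, had no overlap between 11.4 to 15.7 CPM (intact) and 3.94 to 9.56 CPM (deleted), with a log2 fold change of -0.83 (SE 0.21, edgeR adjusted p = 0.344). Fkbp6, a co-chaperone gene, had a log2 fold change of -0.72 (SE 0.18) without overlap. The PIWI protein genes Piwil2 and Piwil4 were at 66.9% and 49.5% of the intact mean, both with overlap.

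For 35 meiotic chromosome genes the median was -0.75, with 33 below 0. Of the 35, 18 were lower at an unadjusted p under 0.05 and 0 higher (4.36% and 3.7% of all genes). Tex11, an X-linked gene for crossover formation, was at 42.7% of the intact mean (log2 fold change -1.24, SE 0.24, edgeR adjusted p = 0.214). Rec114, a gene for meiotic DNA breaks, and Syce3, a synaptonemal complex gene, had no overlap, with log2 fold changes of -1.08 (SE 0.25) and -1.17 (SE 0.28). Stag3, a meiotic cohesin gene, had one of -1.0 (SE 0.26).

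The list with the lowest median was that of germline genes whose promoters are methylated in somatic cells. All 27 tested members had a log2 fold change below 0, the median was -1.11, and Tuba3a was the 1 member called. Of the 27, 24 were lower at an unadjusted p under 0.05 and 0 higher (4.36% and 3.7% of all genes). Dazl, an RNA-binding protein gene of germ cell identity, was at 91.2 and 97.4 CPM in WT, 176, 96.4 and 107 in Dnmt3C KO, 44.2, 21.4 and 24.8 for Nrf1 cKO and 120, 68 and 33.2 in dKO. All Nrf1 cKO libraries were below WT, while dKO replicate 1 lay above all but 1 of the intact libraries (log2 fold change -1.17, SE 0.30, edgeR adjusted p = 0.344). Tex19.1, which restrains retrotransposons in germ cells, had no overlap, with 31.6 to 52.1 CPM in the intact and 10.9 to 28.8 CPM in the deleted libraries (log2 fold change -0.86, SE 0.22, edgeR adjusted p = 0.352). Taf7l, an X-linked transcription factor subunit gene, and Rpl10l, a retrocopy of a ribosomal protein gene used in the germline, had log2 fold changes of -1.06 (SE 0.27) and -1.19 (SE 0.26). Of the 27 genes, 8 are also in the piRNA list, 7 in the meiotic list and 4 among the germ cell markers, so the lists are not separate evidence.

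**Figure D2:**
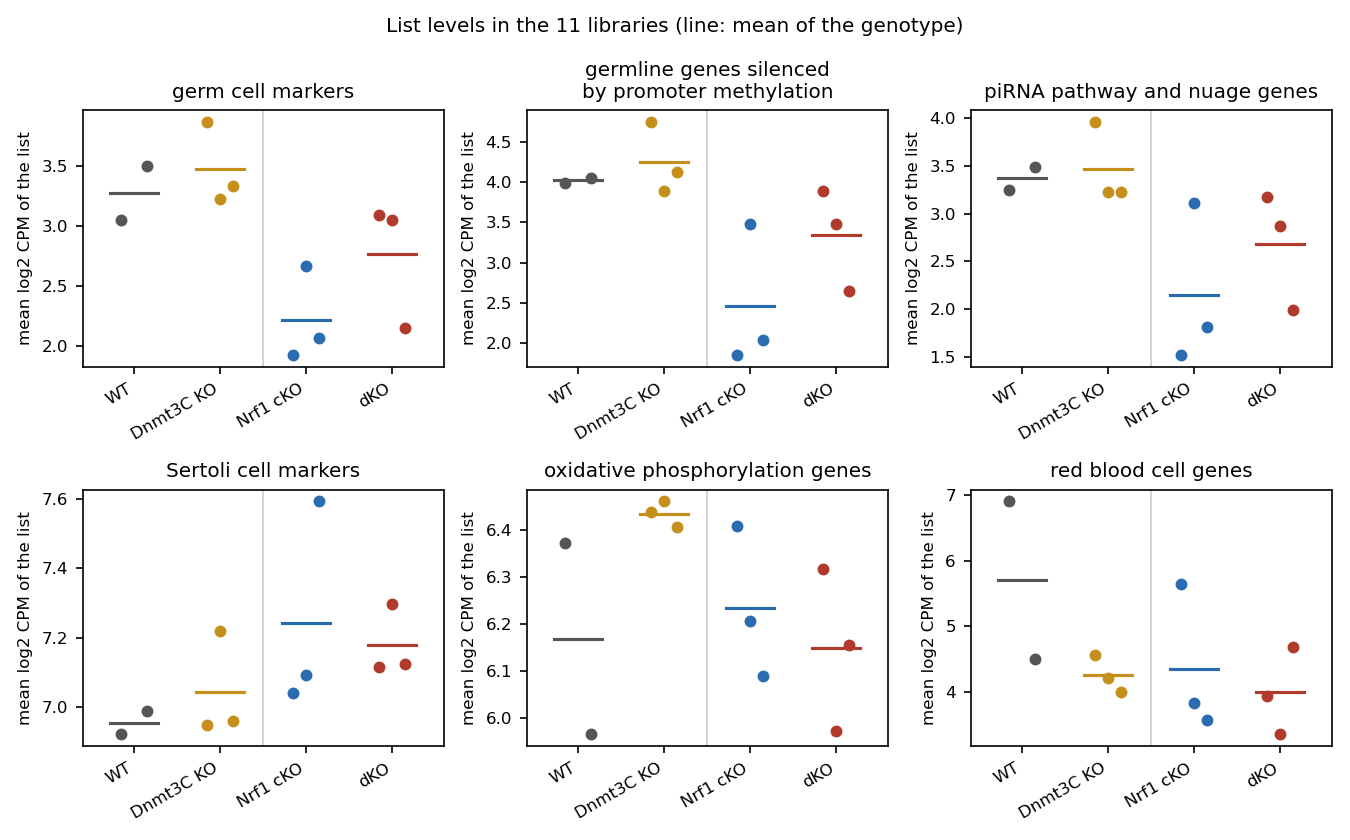
Mean log2 CPM of 6 gene lists in each library, by genotype, with points for libraries and lines for genotype means. Germline lists are lowest in Nrf1 cKO replicates 2 and 3 and dKO replicate 3, and WT replicate 2 stands out at 6.91 log2 CPM for red blood cell genes.

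Some genes were also lower relative to the germ cell markers. With germ cell markers set equal in every library, the median gene moved up by 0.89 on the log2 scale, and the calls became 9421 higher (41.7%) and 20 lower (0.0885%). The 20 lower features were all genes, and 2 of them, Ctag2l1 among them, belong to the marker list used for the scaling. The scaling came from these same libraries, so its adjusted p-values describe that fit and do not test a fall beyond that of the germ cells. Asz1, which encodes a nuage protein of the piRNA pathway, was at 9.17 and 10.7 CPM in WT, 20.7, 9.38 and 10.7 in Dnmt3C KO, 5.79, 0.190 and 0.155 for Nrf1 cKO and 10.0, 2.78 and 1.07 in dKO. Its 3 lowest libraries were those with the lowest germ cell markers. The log2 fold change was -1.86 (SE 0.68, edgeR adjusted p = 0.537) in the unscaled fit and -1.26 (edgeR adjusted p = 0.0031) in the scaled one.

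Syce1, a gene of the synaptonemal complex, was at 10.8 and 11.1 CPM in WT, 19.3, 9.66 and 14.9 in Dnmt3C KO, 5.61, 0.0544 and 0.155 for Nrf1 cKO and 10.1, 3.0 and 0.428 in dKO. The order of the libraries was like that of Asz1. The scaled log2 fold change was -1.48 (edgeR adjusted p = 0.0015). Tktl2, a transketolase-like gene of the germline, was at 4.96 and 4.30 CPM in WT and between 3.58 and 7.35 CPM in Dnmt3C KO. It had 1.36 CPM in Nrf1 cKO replicate 1 and 0 counts in replicates 2 and 3, which allow up to 0.0816 and 0.116 CPM (3 counts, counting error only). In dKO it was at 3.57, 1.02 and 0.0611 CPM, so that every deleted library lay below every intact one. Its scaled log2 fold change was -1.83 (edgeR adjusted p = 0.00091).

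Promoters of Asz1, Syce1 and Tktl2 are printed above, and Gm31579, another of the 20, also held the motif, so that 4 of the 18 with a window did (22.2%, a description with no comparison, since these genes were chosen by their values). The other genes of the 20 include the X-linked germline genes Rhox13, Tktl1, Xlr, Xlr3c and Ctag2l1, with scaled log2 fold changes of -1.44, -1.29, -1.29, -1.26 and -1.14. They also include the embryonic globin genes Hbb-y and Hba-x, which were high mainly in WT replicate 2 (19 and 3.06 CPM), the library with the highest red blood cell genes. Hbb-y had an edgeR adjusted p of 4.3e-14 in the scaled fit, against 0.395 in the unscaled one. Stk31, a germline gene with a Tudor domain, was at 21.3 and 22.9 CPM in WT, 43.1, 20.4 and 27.4 in Dnmt3C KO, 16.4, 3.78 and 4.18 for Nrf1 cKO and 23.6, 14 and 8.37 in dKO. It was not among the 20, with a log2 fold change of -1.18 (SE 0.36, edgeR adjusted p = 0.424) in the unscaled fit and -0.44 (edgeR adjusted p = 0.178) in the scaled one.

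**Figure D3:**
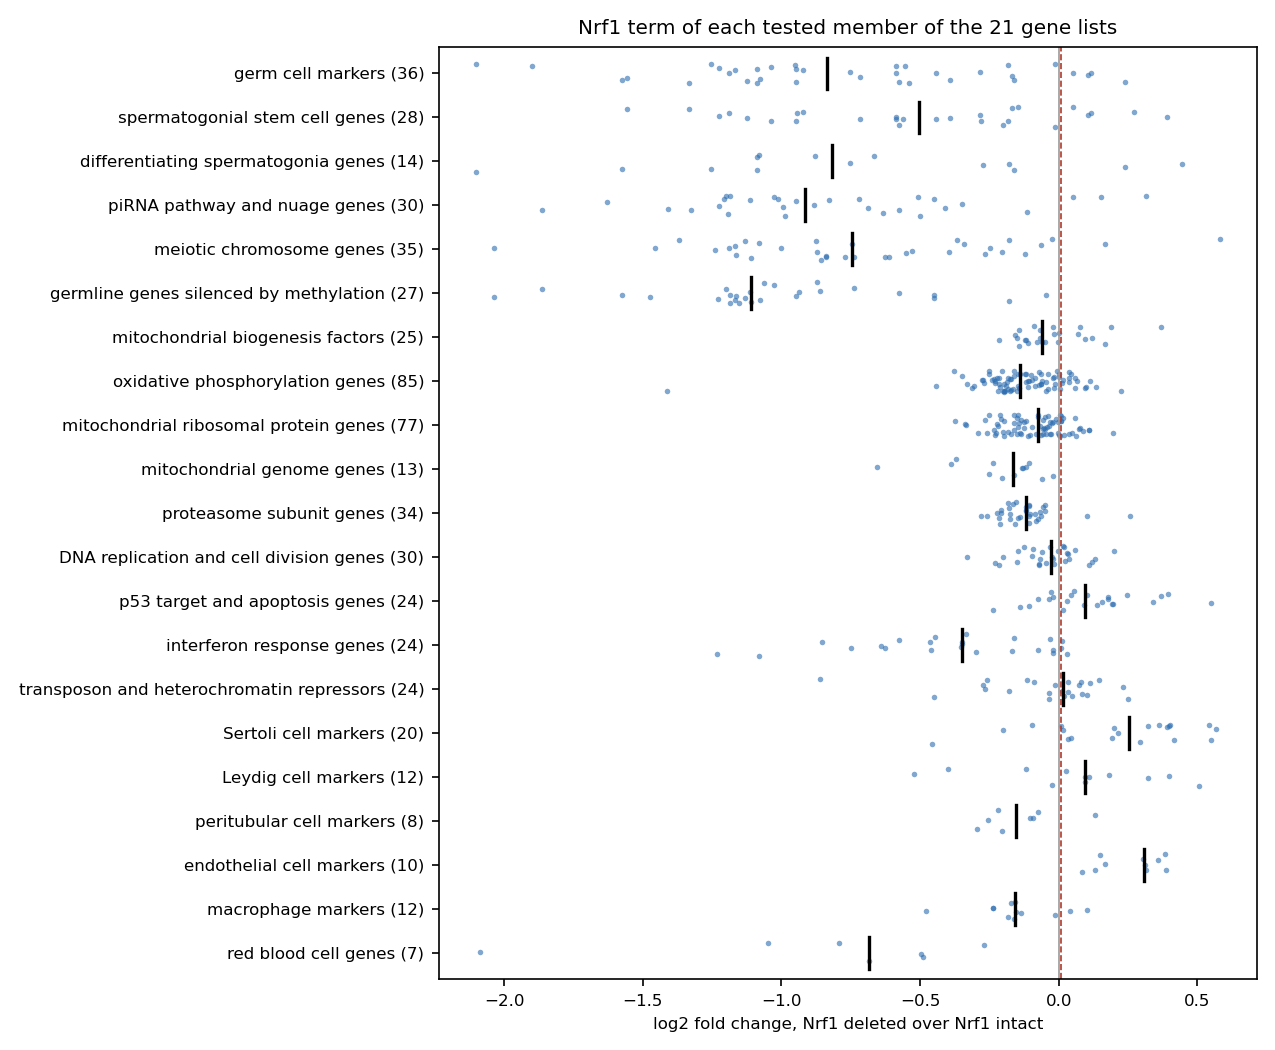
Log2 fold change (Nrf1 deleted over intact, x axis) of each tested member of 21 gene lists, with black bars for list medians and a dashed line for the median of all genes at 0.01. The 6 germline lists lie to the left, with medians from -1.11 to -0.50, while the mitochondrial and proteasome lists have medians between -0.16 and -0.06.

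The mitochondrial lists, which hold the best known NRF1 targets, had medians nearer to 0 than the germline lists, with most members below 0. Somatic cells, which keep the floxed allele, contribute to these counts, so the effect on these genes within germ cells was not measured. The median log2 fold change was -0.06 over 25 mitochondrial biogenesis factors, -0.14 over 85 oxidative phosphorylation genes, -0.07 over 77 mitochondrial ribosomal protein genes and -0.16 over the 13 genes of the mitochondrial genome. At an unadjusted p under 0.05, 0 of the biogenesis factors, 6 of the oxidative phosphorylation genes (all lower), and 9 of the mitochondrial ribosomal genes (8 lower, 1 higher) were counted, against 4.36% lower and 3.7% higher over all genes, and 0 passed the adjusted threshold. Below 0 were 17 of the 25 biogenesis factors, 68 of the 85 oxidative phosphorylation genes, 59 of the 77 mitochondrial ribosomal genes and 13 of 13 genes of the mitochondrial genome. The last median was 0.03 without WT replicate 2 and -0.34 without dKO replicate 3, and without WT replicate 1 that of oxidative phosphorylation genes was -0.24 and that of mitochondrial ribosomal genes -0.14. Nearest to 0 they were -0.08 (without dKO replicate 2) and -0.05 (without dKO replicate 3). Tfam, the packaging factor of mitochondrial DNA, was at 105% of the intact mean (log2 fold change 0.07, SE 0.09). The lowest p of these lists belonged to Mrps18b, a mitochondrial ribosomal protein gene, at 76.3% of the intact mean (log2 fold change -0.37, SE 0.10, edgeR adjusted p = 0.377). Ndufa11 and Ndufs8, complex I subunits, had log2 fold changes of -0.38 (SE 0.14) and -0.33 (SE 0.13).

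For the 34 proteasome subunit genes the median was -0.12, with 32 below 0, and 3 lower and 1 higher at an unadjusted p under 0.05 (4.36% and 3.7% of all genes), and for 30 DNA replication and cell division genes it was -0.03, with 3 lower and 0 higher. The proteasome median was between -0.20 (without WT replicate 1) and -0.09 (without dKO replicate 2), and the replication median had either sign, -0.10 without Dnmt3C KO replicate 1 and 0.02 without WT replicate 2. Adrm1, a ubiquitin receptor of the proteasome, was at 119% of the intact mean and Psma4, a core subunit, at 82.6%. Ccnb1 (cyclin B1) was at 78.2%. Among 24 p53 target and apoptosis genes the median was 0.10, with 2 higher (Gdf15 and Btg2, log2 fold changes 0.55, SE 0.23, and 0.18, SE 0.08) and 0 lower, where 3.7% of all genes were higher. This median was 0.04 without dKO replicate 3 and 0.15 without dKO replicate 1. Bbc3 (Puma), a proapoptotic gene, was at 128% (log2 fold change 0.34, SE 0.17). Among 24 interferon response genes the median was -0.35, with 2 lower (4.36% of all genes) and 0 higher, and it was -0.07 without WT replicate 2 and -0.48 without WT replicate 1. Ifit3 was highest in WT replicate 2 at 3.94 CPM and in Dnmt3C KO replicate 3 at 3.46 CPM, against 0.618 to 1.62 CPM elsewhere.

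Repressors of transposons and heterochromatin factors had a median of 0.02 over 24 genes, with 4 lower at an unadjusted p under 0.05 and 0 higher (4.36% and 3.7% of all genes). The sign of this median changed with the library left out, from -0.07 (dKO replicate 2) to 0.05 (WT replicate 1). After Tex19.1, the smallest p was that of Hells (LSH), a chromatin remodeller needed for DNA methylation of repeats. It was at 103 and 133 CPM in WT, 120, 98.7 and 109 in Dnmt3C KO, 69.9, 55.1 and 63.9 for Nrf1 cKO and 107, 106 and 98.0 in dKO. The Nrf1 cKO libraries were the lowest of all, and of the dKO libraries 2 lay within the range of the intact ones and replicate 3 just below it. The log2 fold change was -0.91 (SE 0.15) in Nrf1 cKO over WT and -0.07 (SE 0.13) in dKO over Dnmt3C KO, a difference between the backgrounds of 0.84 (edgeR adjusted p = 0.895). Mphosph8 and Suv39h2, which act in histone H3 lysine methylation silencing, both had a log2 fold change of -0.26 (SE 0.11 and 0.12).

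Most somatic lists had medians nearer to 0 than the germline lists. Of 20 Sertoli cell markers, 17 had a log2 fold change above 0, the median was 0.25, and at an unadjusted p under 0.05 there were 8 higher and 0 lower. The Sertoli cell median was between 0.09 (without Nrf1 cKO replicate 3) and 0.31 (without Nrf1 cKO replicate 1). Inhbb, an inhibin and activin subunit gene, was between 136 and 251 CPM in the intact and between 200 and 361 CPM in the deleted libraries (log2 fold change 0.57, SE 0.18, edgeR adjusted p = 0.483). Nr5a1 (SF1), a steroidogenic transcription factor of Sertoli and Leydig cells, was at 134% of the intact mean (log2 fold change 0.40, SE 0.12, edgeR adjusted p = 0.414), and Gata4 at 132%. The median was 0.10 over 12 Leydig cell markers (1 higher), -0.15 over 8 peritubular markers, 0.31 over 10 endothelial markers and -0.16 over 12 macrophage markers, the last 3 with 0 genes at an unadjusted p under 0.05. With 1 library left out, the Leydig cell median was between 0.02 (without WT replicate 1) and 0.19 (without dKO replicate 2), the peritubular median was between -0.24 (without WT replicate 2) and -0.04 (without Dnmt3C KO replicate 1), and the endothelial one between 0.17 (without WT replicate 1) and 0.45 (without dKO replicate 2). The macrophage median had either sign, -0.30 without WT replicate 1 and 0.04 without dKO replicate 2. Over 7 red blood cell genes it was -0.68 with all libraries, -0.07 without WT replicate 2 and -1.03 without Nrf1 cKO replicate 2. Summed over the list, the Sertoli cell markers ranged from 6890 to 8980 CPM in the intact and 8070 to 12000 CPM in the deleted libraries, and their part in the germline values was not tested.

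TE subfamilies had a median log2 fold change of -0.18 (0.75 with germ cell markers set equal), with 729 of 904 below 0, and 0 passed the adjusted threshold (edgeR, smallest adjusted p = 0.344; DESeq2 also called 0). TE reads made up 3.07% and 2.91% of the counts in WT, 2.78%, 2.2% and 2.56% in Dnmt3C KO, 1.6%, 2.21% and 2.42% for Nrf1 cKO and 3.07%, 2.72% and 2.42% in dKO. The share was lowest in Nrf1 cKO replicate 1. The direction differed between the backgrounds: the mean was 2.99% in WT and 2.08% in Nrf1 cKO, without overlap, and 2.51% in Dnmt3C KO and 2.74% in dKO, with overlap. Averaged over these opposite directions, the difference, deleted minus intact, was -0.346 percentage points (two-sided exact permutation within backgrounds over 200 regroupings, p = 0.255, where the smallest possible p is 0.005).

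Intracisternal A particles (IAPs), active endogenous retroviruses of the ERVK family, held the subfamilies with the smallest p. IAPLTR2a, an IAP promoter repeat, was at 4.45 and 5.32 CPM in WT, 18.6, 10.9 and 13 in Dnmt3C KO, 1.97, 3.78 and 2.52 for Nrf1 cKO and 10.4, 5.03 and 4.64 in dKO. In each background the Nrf1-deleted libraries lay below the intact ones. The log2 fold change was -0.97 (SE 0.24, edgeR adjusted p = 0.344). IAP1-MM_I-int, an internal sequence, was at 21.4 and 24.4 CPM in WT, 59.0, 30.2 and 44.4 in Dnmt3C KO, 5.92, 11.9 and 7.24 for Nrf1 cKO and 38.3, 35.6 and 19 in dKO. The groups were apart in Nrf1 cKO against WT and overlapped in dKO against Dnmt3C KO (log2 fold change -0.93, SE 0.25, edgeR adjusted p = 0.362). IAPEy-int had a log2 fold change of -1.50 (SE 0.42, edgeR adjusted p = 0.392) and IAPLTR2_Mm one of -0.73 (SE 0.28). The abundant IAPEz-int, at 244 to 1020 CPM, had one of -0.34 (SE 0.21), and IAPLTR1_Mm one of -0.43 (SE 0.23). Leaving out Dnmt3C KO replicate 1 gave -0.16 for IAPEz-int, whereas leaving out dKO replicate 1 gave -0.51. For IAPLTR1_Mm the value nearest to 0 was -0.26, without dKO replicate 2, and the farthest -0.61, without dKO replicate 1. Over all 9 IAP internal sequences the median was -0.38 with 8 below 0, and over 16 IAP LTRs it was -0.35 with 14 below 0. The germ cell markers moved with them (median -0.84), and their part in the IAP values was not tested. With germ cell markers set equal, IAPLTR2a was at a log2 fold change of -0.09 (edgeR adjusted p = 0.804) and IAP1-MM_I-int at -0.06 (edgeR adjusted p = 0.864), and the medians were 0.50 over the internal sequences and 0.58 over the LTRs, where the scaling itself moved the median gene by 0.89. These scaled values pool both backgrounds. Unscaled, the germ cell markers had medians of -1.03 with Dnmt3C intact and -0.54 with Dnmt3C deficient. In the same order IAPLTR2a was at -0.82 and -1.08, IAPLTR2_Mm at -0.30 and -1.05, and IAP1-MM_I-int at -1.45 and -0.52.

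The MMERVK10C and RLTR10 group, another young ERVK family, had 11 of 11 subfamilies below 0 and a median of -0.28, which was 0.63 with germ cell markers set equal. MMERVK10C-int was at 84.0 and 81.7 CPM in WT, 402, 189 and 240 in Dnmt3C KO, 33.8, 53.6 and 51.5 for Nrf1 cKO and 303, 212 and 164 in dKO (log2 fold change -0.54, SE 0.21, edgeR adjusted p = 0.589). Of the dKO libraries, 2 lay within the range of Dnmt3C KO and 1 below it, whereas all Nrf1 cKO libraries lay below WT. RLTR10C, RLTR10B and RLTR10B2 had log2 fold changes of -0.17 (SE 0.20), -0.56 (SE 0.24) and -0.17 (SE 0.22). Without Dnmt3C KO replicate 1 those of RLTR10C and RLTR10B2 were -0.003 and -0.011, and the lowest values were -0.28 for RLTR10C (without dKO replicate 1) and -0.28 for RLTR10B2 (without Dnmt3C KO replicate 2). MamGyp-int, a low subfamily at 0.136 to 0.998 CPM, was the 1 subfamily whose groups did not overlap (0.111% of subfamilies, log2 fold change -1.15, SE 0.37).

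Among other groups the median was -0.20 over 35 SINEs, all below 0, -0.20 over 114 older LINE1 subfamilies (111 below 0), -0.20 over 157 DNA transposons, -0.17 over 84 MaLR LTRs and -0.11 over 8 MERVL and MT2 subfamilies. The 6 young L1Md subfamilies had a median of 0.03. L1Md_A was at 89.5 and 123 CPM in WT, 119, 118 and 134 in Dnmt3C KO, 74.6, 98.2 and 97.5 for Nrf1 cKO and 199, 360 and 318 in dKO. Only the dKO libraries were high, and the Nrf1 term of 0.57 (SE 0.25, edgeR adjusted p = 0.603) averages 2 unlike backgrounds.

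**Figure D4:**
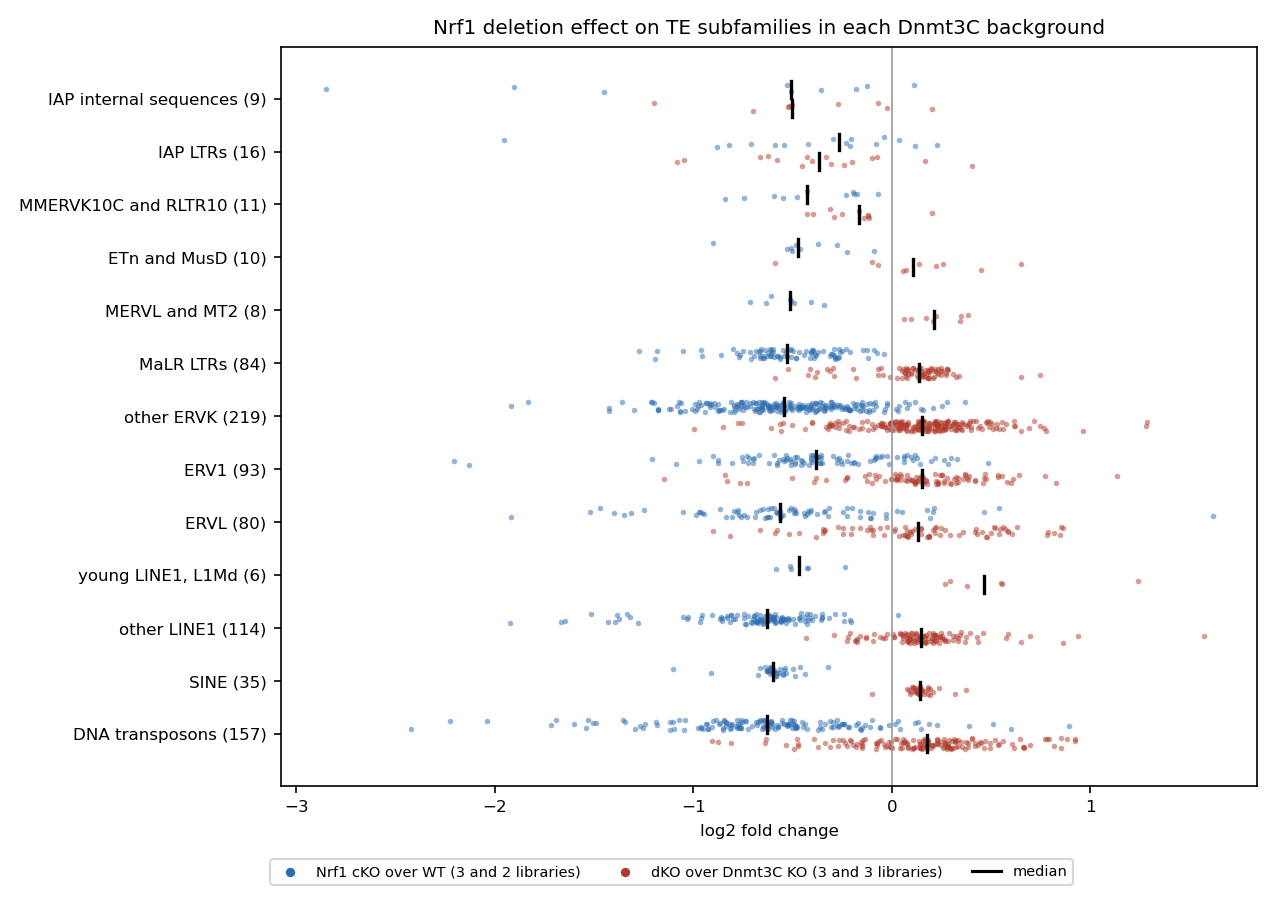
Log2 fold change of each tested TE subfamily in Nrf1 cKO over WT (blue) and dKO over Dnmt3C KO (red), by TE group, with black bars for medians. The medians of the IAP and MMERVK10C groups lie below 0 in both backgrounds, and those of the other groups below 0 with Dnmt3C intact and above 0 with Dnmt3C deficient.

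The Nrf1 term averages the effect over both backgrounds, and the libraries of the pair of contrasts are separate. At an adjusted p under 0.01, edgeR called 0 features in Nrf1 cKO over WT, 0 in dKO over Dnmt3C KO and 0 for the difference between them (0% each). In Nrf1 cKO over WT, 930 genes were lower (4.29%) and 764 higher (3.52%) at an unadjusted p under 0.05, with 302 TE subfamilies lower (33.4%) and 0 higher (0%). In dKO over Dnmt3C KO, 643 genes were lower (2.96%) and 414 higher (1.91%), with 3 subfamilies lower (0.332%) and 30 higher (3.32%). For the difference, 420 genes were lower (1.94%) and 574 higher (2.65%), with 1 subfamily lower (0.111%) and 258 higher (28.5%). DESeq2 called 22 features (0.0642%), 2 (0.00584%) and 0. The backgrounds gave genes the same sign in 55.6% of cases and TE subfamilies in 31.1%. For 610 of the 904 subfamilies the log2 fold change was below 0 with Dnmt3C intact and above 0 with Dnmt3C deficient, and the medians were -0.56 and 0.14. These medians rest on few libraries, 2 of WT among them, and all genes had medians of 0.02 and 0.01.

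The germline lists had the same sign in both backgrounds. The germ cell markers had medians of -1.03 with Dnmt3C intact and -0.54 with Dnmt3C deficient, the piRNA genes -1.02 and -0.75, the meiotic genes -1.03 and -0.46, and the genes silenced by promoter methylation -1.32 and -0.91, with all 27 of the last below 0 in both. The difference was tested for each gene, as given above, and 0 passed. Oxidative phosphorylation genes had medians of 0.04 and -0.28, with 27 and 81 of 85 below 0. The first rests on WT libraries that were far apart, with list means of 5.965 (replicate 1) and 6.373 log2 CPM (replicate 2). The Nrf1 cKO mean, 6.235, lay between them. Endothelial markers had medians of 0.65 and -0.12, and macrophage markers 0.25 and -0.48. In dKO replicate 2 the list means were low, at 2.616 log2 CPM (endothelial) and 2.56 (macrophage). Replicates 1 and 3 of dKO were at 3.905 and 3.856 (endothelial) and 3.325 and 3.969 (macrophage). The Dnmt3C KO means were 3.676 and 3.754.

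IAP internal sequences had medians of -0.51 and -0.50 in the 2 backgrounds, with 8 of 9 below 0 in each, although single members differed between them, as given below. The ETn and MusD group had -0.47 and 0.11, the MERVL and MT2 group -0.51 and 0.21, older LINE1 -0.63 and 0.14 and SINEs -0.60 and 0.14. The young L1Md subfamilies had -0.47 and 0.46, with all 6 below 0 and then all 6 above 0. L1Md_A had log2 fold changes of -0.24 (SE 0.23) and 1.24 (SE 0.21), a difference of 1.47 (edgeR adjusted p = 0.895). L1Md_T had -0.42 (SE 0.17) and 0.55 (SE 0.15), and MMETn-int, a nonautonomous ERVK element, -0.53 (SE 0.17) and 0.65 (SE 0.15). The named IAP subfamilies had differences of either sign. IAPLTR2a had -0.82 (SE 0.38) and -1.08 (SE 0.33), and IAPLTR2_Mm -0.30 (SE 0.40) and -1.05 (SE 0.36), with differences of -0.26 and -0.75. IAP1-MM_I-int had -1.45 (SE 0.34) and -0.52 (SE 0.30), and IAPEy-int -1.90 (SE 0.65) and -1.20 (SE 0.57), with differences of 0.93 and 0.71. For each of these 7 subfamilies the difference between the backgrounds had an edgeR adjusted p of 0.895 or more.

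**Figure D5:**
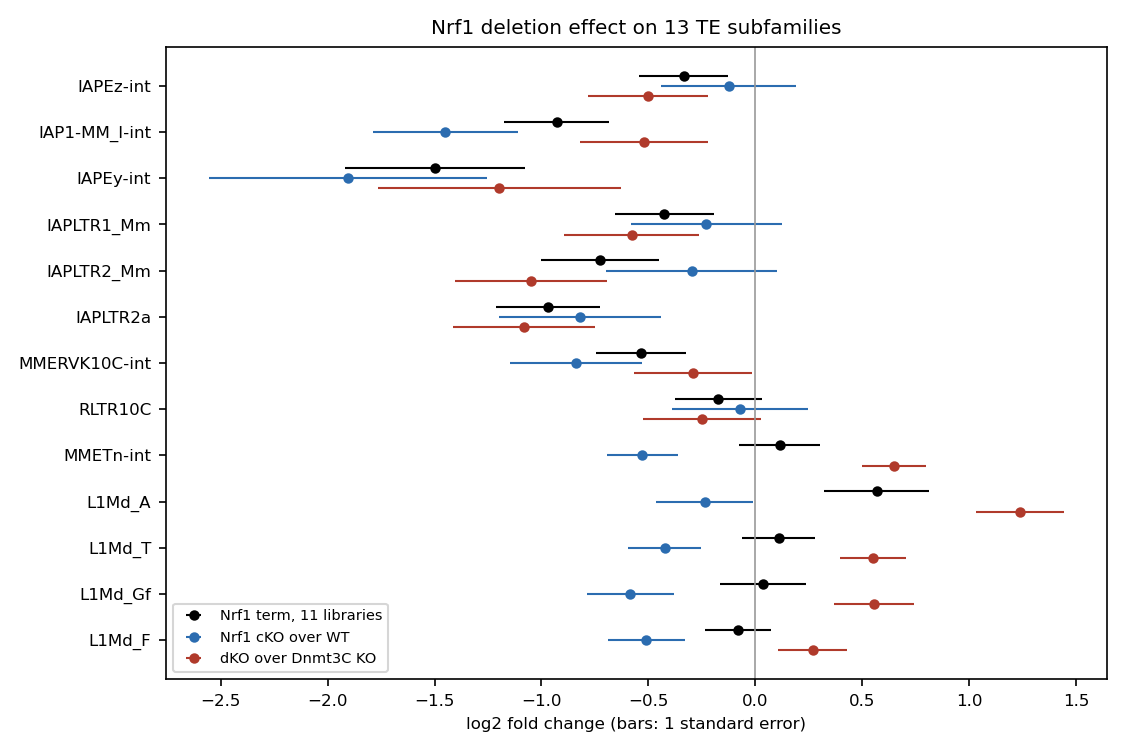
Log2 fold change of 13 TE subfamilies for the Nrf1 term over 11 libraries (black) and within each Dnmt3C background (blue, Nrf1 cKO over WT; red, dKO over Dnmt3C KO), with bars of 1 standard error. IAP subfamilies lie below 0 in both backgrounds, and L1Md subfamilies and MMETn-int lie on opposite sides of 0.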

How the data were processed

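Poly-A RNA of whole testes was sequenced by the authors, who left out libraries of poor RNA quality, aligned the reads to GRCm38 with STAR 2.7.3a against GENCODE and counted genes and TE subfamilies together with TEtranscripts in its multi-mapping, reverse-stranded mode. The authors deposited the raw counts in pairwise tables, and the 11 libraries were joined from these by their column names, with 0 columns of no sample. Columns of the authors' own comparisons (means, fold changes, p-values, from DESeq2 1.44.0) and a table of values per TE copy were not used. Replicates follow the labels, so p-values measure the spread between these samples. Reads of near-identical genes and of TE copies inside genes cannot be told apart by such counts.

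Features with low counts were removed with edgeR's filterByExpr over the 4 genotypes. Counts were normalised by TMM and fitted with edgeR 4.0.16 (R 4.3.3) as Dnmt3C status plus Nrf1 status. The Nrf1 coefficient was tested by the quasi-likelihood F test, with Benjamini-Hochberg adjustment over all 22594 genes and TE subfamilies and a threshold of 0.01. Standard errors were derived from the log2 fold change and the F statistic. Contrasts within each background and their difference came from a fit of the 4 genotypes. The alternatives were the DESeq2 1.42.0 Wald test, other scalings (among them equal germ cell markers), no filter, a replicate block and leaving out each library. The fit was tested on simulated data in which 200 features had a log2 change of 2. The Nrf1 term recovered 95.5% of them (22045 features run) and the difference 71% (22077 features run). The changed features excluded those with the lowest levels, and no shift in cell content was simulated. Most changes reported here are smaller, so these shares do not give the power for them.

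The members, gene lists and tests were chosen with earlier results of these data known. Up to 4 members of each list with the smallest p were named, up to 8 for lists with calls, then the 10 TE subfamilies with the smallest p and the subfamilies of the study. Other genes were named after their values were seen. Promoters came from RefSeq (GRCm38.p6), with a window for 13620 of the 21690 tested genes. Python 3.11.15 with pandas 2.3.3 and scipy 1.17.1 was used for the rest. A gene of the lists is not reported here.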

Additional observations from a re-analysis of the deposited data

Results flagged for a closer look

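Within the 6 Nrf1-deleted and the 5 Nrf1-intact libraries, 252 groups of values were examined for a library far from the others (a gap to the nearest library above the 95% critical value of Dixon's test), and 27 had one. Chance alone gives about 1 in 20 groups, and the groups mix genotypes that differ in Dnmt3C. No explanation was tested.

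Dnmt3C KO replicate 1 stood apart with high germline values: Dazl at 175.8 CPM, Nxf2 at 95.03, Fkbp6 at 69.71, Dnd1 at 22.28 and Tdrd5 at 15.65 CPM. The same library had RLTR27 at 9.273 CPM and a mean of 4.746 log2 CPM for germline genes silenced by promoter methylation. Among the Nrf1-deleted libraries, dKO replicate 1 was high for IAPLTR2_Mm at 56.56 CPM, IAPA_MM-int at 16.19 CPM, IAPLTR2a at 10.4 CPM and Ctag2l1 at 5.257 CPM.

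WT replicate 2 was high for the red blood cell genes, with a list mean of 6.909 log2 CPM, Hba-a2 at 405.3 CPM, Hbb-bt at 255.4 and Slc4a1 at 31.09 CPM. It was low for Cyp11b1, a steroid hydroxylase gene, at 1.082 CPM. Nrf1 cKO replicate 2 was high among the deleted libraries for Hba-a2 at 307.3 CPM, Hbb-bt at 159 CPM and Tpm2 at 132.7 CPM.

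WT replicate 1 had the lowest means of the intact libraries for oxidative phosphorylation genes, at 5.965 log2 CPM, mitochondrial ribosomal protein genes, at 5.155, and proteasome subunit genes, at 6.91, and the highest for transposon and heterochromatin repressors, at 6.536. Dnmt3C KO replicate 2 had the highest Sertoli cell mean of the intact libraries, at 7.218 log2 CPM, and the lowest Tcl1, at 6.861 CPM. Vwf was at 20.33 CPM in Nrf1 cKO replicate 1 and mt-Atp6 at 1094 CPM in dKO replicate 3, each the highest of the deleted libraries.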

How the results depend on the processing

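The count of genes called for the Nrf1 term, 1 in edgeR, was 39 with DESeq2 (37 lower, 2 higher), 6 without a filter on low counts, 9346 with scaling to equal germ cell markers (20 lower) and between 0 and 1 with 1 library left out (1 without Nrf1 cKO replicate 3 or dKO replicate 2). TE subfamilies called went from 0 to 95, all higher, with the germ cell scaling, and the cause was not tested beyond the scaling itself, which moved the median gene by 0.89. In Nrf1 cKO over WT, 0 calls became 22 with DESeq2, 3 without the filter and 0 to 6 with 1 library left out (6 without WT replicate 1). In dKO over Dnmt3C KO they became 2 with DESeq2, and for the difference between backgrounds 0 to 1 (1 without WT replicate 1). The median of the mitochondrial biogenesis factors was between -0.096 and -0.004 with 1 library left out.

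Replicate numbers do not pair the samples by the labels, and same-numbered libraries did not all deviate together. With the replicate block the Nrf1 term called 1 gene and 0 TE subfamilies, and 0 features were called in either background or for their difference. The block used the numbers of the sample titles, and some count columns carry other numbers. The paper used littermate controls where it could, and the block cannot adjust for litters, which the labels do not give.

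Of 1996 alternative values for 104 named features, 1936 kept direction and side of the threshold, and 19 reversed. Among these features only Tuba3a was past the threshold in the main fit, so for the others keeping the side means staying uncalled. Values under the germ cell scaling were taken relative to the median gene. With 1 library left out, the log2 fold change ranged from -0.015 to 0.259 for L1Md_T, from -0.19 to 0.019 for L1Md_F, from -0.109 to 0.242 for L1Md_Gf, from -0.083 to 0.127 for L1Md_F2, from -0.393 to 0.013 for mt-Nd1, from -0.322 to 0.005 for C1qa and from -0.033 to 0.122 for Dnmt3c. As the mean of both backgrounds it was -0.015 for L1Md_Gf and -0.026 for L1Md_F2. The cause was not tested. With 2 WT libraries, leaving out 1 assumes that the other varies like the remaining groups.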

Other observations

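X-linked genes made up 4.11% of the genes tested, 10.9% of the 101 genes whose Nrf1-deleted libraries all lay below the intact ones, 1.61% of the 62 whose libraries lay above, and 24.3% of the 37 genes that DESeq2 called lower. Among the latter were Fthl17d and Fthl17f, X-linked ferritin-like genes of the germline, at 24.8% and 29.6% of the intact mean. Copies of this family are near-identical and can share reads. Scml2, an X-linked Polycomb gene of spermatogonia, was between 20.4 and 55.3 CPM in the deleted and between 56.9 and 92.6 CPM in the intact libraries. These genes were chosen after their values were seen, and the shares were not tested.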
